A study of Homo sapiens with 6 samples.

Results

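The aminoacyl-tRNA synthetases are described here in AsPC-1, an established line of human pancreatic cancer cells, after targeting of VCPIP1. Their genes were taken by symbol, and 37 of the 15832 genes in the table are members. Of these, 18 encode cytosolic enzymes, 17 encode mitochondrial enzymes (symbols ending in 2), and GARS1 and KARS1 each encode the enzyme of both compartments. There were 3 libraries of cells transfected with siVCPIP1, an siRNA against VCPIP1, and 3 of cells transfected with siControl, all for 48 h. The labels name no other treatment, and they do not say how many siRNA sequences were used or whether each library had a culture of its own, so the spread behind each p-value is that between libraries and may be technical. Values are TPM, the share of a gene among all transcripts after allowing for gene length, so levels of different genes can be set side by side. Read depth is unknown.

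Aminoacyl-tRNA synthetases join each amino acid to its tRNA and so supply the ribosome with charged tRNAs. The cytosol and the mitochondrion use largely separate sets, all encoded in the nucleus, and both sets are divided by the fold of the catalytic domain into class I and class II. Several cytosolic enzymes sit together in the multi-tRNA-synthetase complex, held by the scaffold proteins AIMP1, AIMP2 and EEF1E1. When amino acids run short, the kinase GCN2 (EIF2AK4) raises translation of the transcription factor ATF4, which is known to raise transcription of many cytosolic synthetase genes.

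The promoter letters that ATF4 and its C/EBP partners are known to read were searched first, because cytosolic synthetase genes are described as ATF4 targets. The motif was TGATGNAA, on both strands, from 250 bases before to 50 bases after each RefSeq start (GRCh38.p14). Promoters were given for 14 cytosolic members, for GARS1 and KARS1, and for 14 mitochondrial members. A match was found in 6 of the 14 cytosolic genes (42.9%), in 1 of the 14 mitochondrial genes (7.14%, YARS2) and in GARS1, against 4.46% of 27305 genes and 3.62% of 35116 promoters. All 6 cytosolic matches read TGATGCAA or its reverse complement, a form found in 1.08% of genes. The 6 sites are shown with 10 bases on each side, 5′ to 3′ on the strand of the gene, with the match in capitals.
IARS1, chr9:92293693-92293720, minus strand, match from -13 (0 is the first transcribed base): tttcagcgcgTTGCATCAcctccgtgcg
TARS1, chr5:33440957-33440984, plus strand, match from 2: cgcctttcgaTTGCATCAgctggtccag
NARS1, chr18:57621805-57621832, minus strand, match from 14: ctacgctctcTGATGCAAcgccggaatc
MARS1, chr12:57488054-57488081, plus strand, match from -4: ccggttccggTTGCATCAgcgagggatt
CARS1, chr11:3057408-3057435, minus strand, match from -2: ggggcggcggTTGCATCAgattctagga
AARS1, chr16:70289676-70289703, minus strand, match from -187: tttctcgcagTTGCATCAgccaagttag

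A match of letters is a description, not a binding site. In 5 of these 6 genes the first letter of the match lies within 14 bases of the annotated start, and in AARS1 it lies further upstream. With TPM as deposited all 6 genes were called lower in siVCPIP1, but AARS1 and CARS1 were called higher under median-of-ratios scaling and after correction for GC content and length, and MARS1 turned positive without a call after the median-of-ratios scaling. TGATGNAA was found in a promoter of 223 tested genes of the whole table. Of these 223, 164 were called lower and 27 higher, beside 66.0% and 15.0% of all tested genes. The median log2 fold change of the 223 was -1.35, beside -1.12 for all tested genes.

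The targeted gene was read beside the labels. Of all tested genes, 67.9% lay lower in every siVCPIP1 library and 66.0% were called lower. A fall of VCPIP1 therefore cannot by itself check the labels. VCPIP1 had 0.12, 0.11 and 0.27 TPM in the siVCPIP1 libraries, against 2.93, 3.06 and 2.24 TPM in the siControl libraries. Every siVCPIP1 library lay below every siControl library (log2 fold change -1.68, SE 0.13, adjusted p = 2.0e-05), with a pseudocount of 1 TPM. The size of this fold depends on the pseudocount at such low TPM, and it was -3.45 with 0.1 TPM. With GC and length corrected the value was 0.26 without a call (adjusted p = 0.065) at a pseudocount of 1 TPM, and -0.56 with a call of lower (adjusted p = 0.016) at 0.1 TPM, a fit chosen after seeing the data. Over all genes the median level was 1.24 to 2.26 TPM in siVCPIP1 and 6.18 to 7.44 TPM in siControl, so the libraries differed in their whole distribution of TPM, and siVCPIP1 replicate 3 was the nearest of its group to siControl. The epithelial keratins KRT8, KRT18 and KRT19 lay between 6495 and 8924 TPM in siVCPIP1 and between 3909 and 5820 TPM in siControl. KRT7 was also higher in every siVCPIP1 library, at 5.2 to 7.89 TPM, against 2.13 to 3.12 TPM in siControl. EPCAM, CDH1, MUC1 and CEACAM6 were lower in every siVCPIP1 library. EPCAM had 2.99 to 11.7 TPM in siVCPIP1 and 157.3 to 196.2 TPM in siControl, CDH1 0.28 to 1.33 and 27.5 to 31.7, MUC1 14.7 to 23.6 and 51.9 to 61.9, and CEACAM6 0.24 to 0.41 and 1.95 to 3.09. CEACAM5 stayed under 1 TPM in every library. Of the listed markers of acinar, endocrine, fibroblast, immune and endothelial cells, CD68 had 120.5 to 157.6 TPM in siVCPIP1 and 142.5 to 148.0 TPM in siControl, and LUM had 1.08 to 3.71 and 44.1 to 67.4 TPM. The other markers of those cell types reached at most 2.15 TPM (LYZ) or were not listed. Summed over each list, the 9 epithelial markers, nearly all of it from the 3 keratins, had 20938 to 23742 TPM in siVCPIP1 and 13864 to 15986 TPM in siControl, the 6 fibroblast markers 1.69 to 4.93 and 45.9 to 69.8, the 4 listed of 5 immune markers 122.0 to 159.2 and 144.5 to 150.1, the 2 listed of 4 acinar markers 0.17 to 0.72 and 0.23 to 1.03, and the 2 listed of 3 endothelial markers 0.40 to 0.56 and 1.05 to 1.30. None of the 3 endocrine markers was listed, and the part of any other cell type in the results was not tested. In bulk RNA, fewer cells of a type and less RNA per cell cannot be told apart.

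Most synthetase transcripts had lower TPM in siVCPIP1, though the balance depended on the scaling of the libraries. Of 36 tested members, 27 were called lower and 4 higher with TPM as deposited (limma on log2(TPM + 1), adjusted p under 0.05 over 10966 genes). Of all tested genes, 66.0% were called lower and 15.0% higher. Every siVCPIP1 library lay below every siControl library in 27 members and above in 6, where 67.9% and 18.2% of all genes did so. The median log2 fold change of the members was -0.90, beside -1.12 for all genes. The remaining member, MARS2, lay under the filter of a mean of 1 TPM. The 37 transcripts summed to 1889.9, 1939 and 2244 TPM in siVCPIP1, against 2678, 2865 and 2921 TPM in siControl. The sums of the groups did not overlap.

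**Figure D1:**
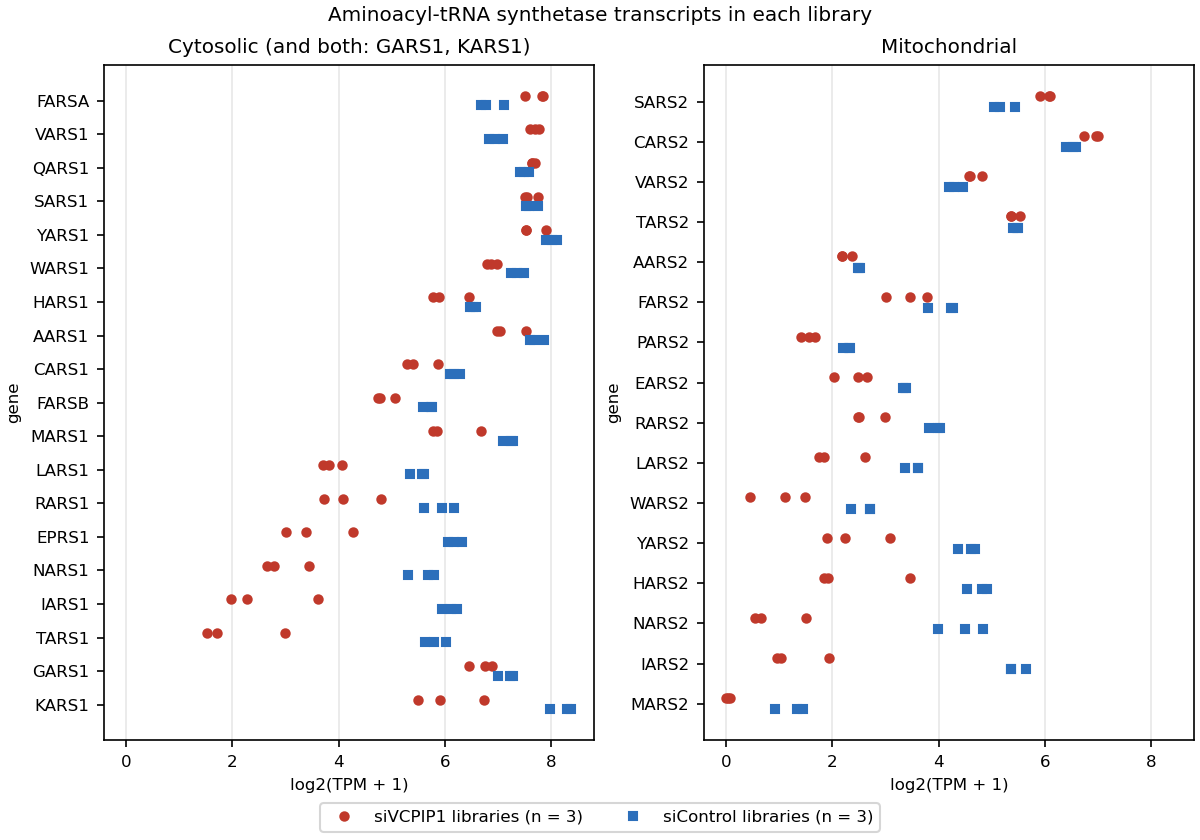
Each row is a synthetase gene and each point a library, on the scale log2(TPM + 1), with siVCPIP1 libraries (circles, n = 3) drawn above siControl libraries (squares, n = 3). Genes run from the highest to the lowest log2 fold change within each compartment (GARS1 and KARS1 last on the left, MARS2 last on the right), and the siVCPIP1 circles pass from right of the siControl squares (FARSA, SARS2) to far left of them (TARS1, IARS2), for the 35 members drawn.

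Among the cytosolic enzymes, the synthetases for threonine and isoleucine fell steeply. TARS1 had 2.28, 1.88 and 6.93 TPM in siVCPIP1, against 54.8, 64.2 and 48.5 TPM in siControl. IARS1 had 2.92, 3.84 and 11.3 TPM in siVCPIP1, against 61.2, 74.4 and 68.2 TPM in siControl. The groups of both genes lay far apart, and in both the highest siVCPIP1 value was that of replicate 3. The log2 fold changes of TARS1 and IARS1 were -3.74 (SE 0.36, adjusted p = 2.5e-05) and -3.48 (SE 0.38, adjusted p = 4.3e-05). NARS1, for asparagine, averaged 7.01 ± 2.47 TPM in siVCPIP1 and 48.0 ± 8.27 TPM in siControl (SD, n = 3 each). EPRS1, the bifunctional enzyme that charges both glutamate and proline tRNAs in the cytosol, averaged 11.6 ± 5.97 TPM in siVCPIP1 and 72.0 ± 6.83 TPM in siControl. All 4 of these genes were called lower with TPM as deposited and under median-of-ratios scaling, quantile normalization and GC and length correction.

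FARSA and VARS1 were the cytosolic members that rose, and they rose under all 4 ways of scaling. FARSA encodes the alpha subunit of phenylalanyl-tRNA synthetase and had 230.5, 226.1 and 181.5 TPM in siVCPIP1, against 138.4, 108.1 and 101.4 TPM in siControl. Its log2 fold change was 0.87 (SE 0.16, adjusted p = 0.00095), and all siVCPIP1 libraries were above all siControl libraries. VARS1, for valine, had 218.3, 207.9 and 195.2 TPM in siVCPIP1, against 136.2, 121.7 and 113.6 TPM in siControl, and its groups did not overlap either (log2 fold change 0.74, SE 0.13, adjusted p = 0.00055). With 15.0% of all genes called higher, 2 of 18 cytosolic members is close to the background.

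The most abundant cytosolic transcripts in siControl lay close together in the groups. YARS1, for tyrosine, had 183.2, 183.8 and 240.3 TPM in siVCPIP1, against 237.9, 259.6 and 276.5 TPM in siControl. The highest siVCPIP1 library, replicate 3, reached into the siControl range (log2 fold change -0.36, adjusted p = 0.046), and the call was lost without any 1 library other than that one (adjusted p = 0.051 to 0.18). AARS1, for alanine, had 126.1, 131.3 and 183.0 TPM in siVCPIP1, against 193.1, 205.6 and 233.8 TPM in siControl (log2 fold change -0.54, adjusted p = 0.016), a call lost without siControl replicate 3, siVCPIP1 replicate 1 or siVCPIP1 replicate 2 (adjusted p = 0.059, 0.074 and 0.060). SARS1, for serine, had 182.4, 186.7 and 214.2 TPM in siVCPIP1, against 185.0, 191.2 and 215.2 TPM in siControl, and was not called (log2 fold change -0.02, SE 0.13, adjusted p = 0.89). QARS1, for glutamine, was not called either, at 201.5 ± 5.40 TPM in siVCPIP1 and 180.1 ± 10.2 TPM in siControl (adjusted p = 0.21), though it was called higher under the other 3 scalings (1.39, 0.30 and 0.82). The directions of YARS1, AARS1 and SARS1 were not stable, since each was called higher under median-of-ratios scaling (0.87, 0.69 and 1.21) and with GC and length corrected (0.31, 0.44 and 0.82).

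The remaining 7 cytosolic members, all called lower with TPM as deposited, kept between 30.6% and 72.2% of their siControl mean. RARS1 and LARS1, for arginine and leucine, averaged 18.3 ± 7.57 and 13.6 ± 1.89 TPM in siVCPIP1, against 59.8 ± 11.6 and 44.5 ± 4.25 TPM in siControl. Their log2 fold changes of -1.71 and -1.64 turned to 0.70 and 0.48 with GC and length corrected (adjusted p = 0.0062 and 0.011). MARS1, for methionine, averaged 70.9 ± 26.7 TPM in siVCPIP1 and 147.3 ± 10.3 TPM in siControl, with a log2 fold change of -1.10, and of 0.12 without a call under median-of-ratios scaling. MARS1 shares 62 bases of exon with DDIT3 on the opposite strand, and the strand setting of the authors' counting is not given in the sources used here. CARS1, FARSB, HARS1 and WARS1, for cysteine, phenylalanine (beta subunit), histidine and tryptophan, had log2 fold changes of -0.66, -0.83, -0.50 and -0.49. All 4 turned positive under median-of-ratios scaling and with GC and length corrected. The HARS1 call was also lost when any 1 of 5 libraries was left out, all but siVCPIP1 replicate 3 (adjusted p = 0.071 to 0.13).

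GARS1 and KARS1 supply both compartments, and a TPM per symbol does not separate their forms. KARS1, for lysine, had 44.0, 59.0 and 105.8 TPM in siVCPIP1, against 251.3, 315.0 and 334.2 TPM in siControl. Every siVCPIP1 library was far below siControl, and the gene kept 23.2% of its siControl mean (log2 fold change -2.18, SE 0.29, adjusted p = 0.00012), with a call of lower under all 4 scalings. A pseudogene transcript, KARS1P3, matches 288 bases of its coding sequence at 91% identity. GARS1, for glycine, had 86.3, 107.0 and 118.1 TPM in siVCPIP1, against 126.6, 149.4 and 154.2 TPM in siControl. The gap between its groups was small (log2 fold change -0.47, adjusted p = 0.021). The call was lost without siControl replicate 2, siControl replicate 3 or siVCPIP1 replicate 1 (adjusted p = 0.073, 0.068 and 0.12), and the sign turned under median-of-ratios scaling (0.75) and with GC and length corrected (1.12).

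Of the 16 mitochondrial members tested, 11 were called lower and 2 higher with TPM as deposited, beside 66.0% and 15.0% of all genes. Median-of-ratios scaling left 7 lower and made 6 higher, beside 45.1% and 40.3%. Their TPM summed to 291.4, 294.8 and 302.9 in siVCPIP1, against 384.6, 398.5 and 389.0 in siControl, while the 18 cytosolic members summed to 1468, 1478 and 1717 in siVCPIP1, against 1915, 2002 and 2044 in siControl. The median log2 fold change was -1.13 over the mitochondrial and -0.75 over the cytosolic members with TPM as deposited. That order was reversed by quantile normalization, with 0.42 over the mitochondrial and -0.34 over the cytosolic members, so no ranking of the compartments held across scalings. Of the cytosolic members, 14 of 18 were called lower and 2 higher with TPM as deposited. The shares of both compartments are near those of all genes.

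IARS2, NARS2 and HARS2, for isoleucine, asparagine and histidine, were among the tested mitochondrial members that fell most. IARS2 had 0.93, 1.03 and 2.82 TPM in siVCPIP1, against 40.4, 49.4 and 40.0 TPM in siControl. It kept 3.68% of its siControl mean, with a log2 fold change of -4.16 (SE 0.28, adjusted p = 2.0e-05). NARS2 had 0.58, 0.45 and 1.84 TPM in siVCPIP1, against 21.7, 27.5 and 14.8 TPM in siControl (log2 fold change -3.54, adjusted p = 2.1e-05). HARS2 had 2.77, 2.56 and 9.98 TPM in siVCPIP1, against 22.3, 27.3 and 29.1 TPM in siControl (log2 fold change -2.36, SE 0.40, adjusted p = 0.00059). In all 3 genes siVCPIP1 replicate 3 was the highest of its group and still lay below every siControl library. Replicate 3 was the highest siVCPIP1 library in 33 of the 37 members and in all 27 called lower. The share of all genes with this order was not computed. The median over all genes was also highest in replicate 3 of siVCPIP1 (2.26 TPM, against 1.26 and 1.24 TPM), so the count is a description only. YARS2, for tyrosine, averaged 4.63 ± 2.47 TPM in siVCPIP1 and 22.5 ± 2.68 TPM in siControl. These 4 genes were the mitochondrial members called lower under all 4 scalings.

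SARS2 and CARS2 were the mitochondrial members called higher. SARS2, for serine, had 66.7, 67.2 and 59.2 TPM in siVCPIP1, against 42.5, 31.9 and 34.8 TPM in siControl (log2 fold change 0.81, SE 0.16, adjusted p = 0.0012). CARS2, for cysteine, had 127.6, 124.5 and 105.3 TPM in siVCPIP1, against 91.6, 83.9 and 95.0 TPM in siControl (log2 fold change 0.39, SE 0.13, adjusted p = 0.023). The groups of both genes did not overlap, and both were called higher under all 4 scalings, but the CARS2 call was lost without siControl replicate 2, siVCPIP1 replicate 1 or siVCPIP1 replicate 2 (adjusted p = 0.095, 0.12 and 0.084). SARS2 shares 349 bases of exon with MRPS12 on the opposite strand, 17% of its transcript, and 72.5% of its transcript with a further annotated protein-coding gene on the same strand, so how its reads were assigned is uncertain.

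The other mitochondrial transcripts ranged from close to absent to level. MARS2, for methionine, had 0.02, 0 and 0.05 TPM in siVCPIP1, against 1.73, 1.52 and 0.89 TPM in siControl, and was not tested for its low mean. Without the filter it was called lower (log2 fold change -1.20, adjusted p = 0.00018). TARS2, for threonine, had 40.1, 40.0 and 45.4 TPM in siVCPIP1, against 44.1, 41.6 and 43.8 TPM in siControl, and was not called (log2 fold change -0.05, SE 0.14, adjusted p = 0.76). VARS2, for valine, had 23.2, 22.7 and 27.03 TPM in siVCPIP1, against 21.1, 18.5 and 17.2 TPM in siControl. All VARS2 libraries of siVCPIP1 lay above siControl, without a call (log2 fold change 0.34, adjusted p = 0.081). AARS2, for alanine, lay lower in every siVCPIP1 library (3.73 ± 0.37 TPM, against 4.65 ± 0.062 TPM in siControl) and was not called (adjusted p = 0.18). WARS2, LARS2, RARS2, EARS2, PARS2 and FARS2 were called lower, with log2 fold changes from -1.58 (WARS2) to -0.68 (FARS2). None of these 6 calls held under all 4 scalings. FARS2 had 7, 10.06 and 12.83 TPM in siVCPIP1, against 12.96, 17.8 and 18.2 TPM in siControl, and its call was lost without siControl replicate 2 or 3 or siVCPIP1 replicate 1 or 2 (adjusted p = 0.056 to 0.12).

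Cytosolic and mitochondrial enzymes for the same amino acid often changed by different amounts. Their ratio within a library is not altered by scaling the whole library by one factor. Quantile normalization and a correction for GC content and length can alter it. Of 18 such pairs, the cytosolic over mitochondrial ratio was higher in every siVCPIP1 library in 7, lower in every siVCPIP1 library in 6 and overlapped in 4. EPRS1 enters with both EARS2 and PARS2, and FARS2 with both FARSA and FARSB. The share of other gene pairs that separate in this way was not computed. Of single genes, 67.9% lay lower and 18.2% higher in every siVCPIP1 library, so these counts are a description only. MARS1 over MARS2 was left out for its value of 0. Of the pairs left, that for threonine differed most between groups, with a TARS1 over TARS2 ratio of 0.057, 0.047 and 0.15 in siVCPIP1, against 1.24, 1.55 and 1.11 in siControl. TARS1 was the more abundant transcript of the pair in siControl and the scarcer in siVCPIP1.

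The opposite direction was seen in 7 pairs, among them those for histidine and asparagine. The mean WARS1 over WARS2 ratio was 4.79 times as large in siVCPIP1 as in siControl. The factor was 4.30 for YARS1 over YARS2 and 3.12 for FARSA over FARS2. The HARS1 over HARS2 ratio was 21.01, 21.1 and 8.67 in siVCPIP1, against 4.08, 3.24 and 3.29 in siControl. These genes lie head to head on chromosome 5 and share 437 bases of HARS1 exon on opposite strands. A stretch of 110 coding bases of HARS2 matches HARS1 transcript sequence at 100% identity and may be part of that overlap. The split of reads between the 2 genes is uncertain. The NARS1 over NARS2 ratio was 10.1, 11.8 and 5.35 in siVCPIP1, against 2.33, 1.99 and 2.61 in siControl. In the isoleucine pair, where both transcripts fell steeply, the IARS1 over IARS2 ratio was 3.14, 3.73 and 3.99 in siVCPIP1, against 1.52, 1.51 and 1.70 in siControl. The pairs with a called rise were FARSA over FARS2 and those for valine, serine and cysteine. For valine, serine and cysteine the mean ratios were 8.59 ± 1.19 (VARS1 over VARS2), 3.04 ± 0.50 (SARS1 over SARS2) and 0.391 ± 0.13 (CARS1 over CARS2) in siVCPIP1. In siControl these were 6.54 ± 0.086, 5.51 ± 1.01 and 0.796 ± 0.057 (SD, n = 3 each). With GC and length corrected, the difference in log2 fold change turned sign in the serine pair (0.82 for SARS1 and 0.57 for SARS2) and in the tryptophan pair (0.67 for WARS1 and 0.71 for WARS2), and kept its sign in the other pairs whose ratios did not overlap. The difference was then -2.40 for threonine, 1.16 for histidine, 0.81 for asparagine, 0.58 for isoleucine, 0.23 for valine and -0.40 for cysteine. Under quantile normalization the difference turned sign in the valine pair (0.91 for VARS1 and 1.45 for VARS2). It also turned in the tryptophan pair (-0.30 for WARS1 and -0.059 for WARS2). An exact permutation test of such a ratio with 3 libraries against 3 cannot go below p = 0.1.

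The subunits of cytosolic phenylalanyl-tRNA synthetase parted. The enzyme is built from equal numbers of alpha (FARSA) and beta (FARSB) subunits. FARSB had 25.6, 26.6 and 32.6 TPM in siVCPIP1, against 46.9, 52.4 and 53.3 TPM in siControl, so it was lower in every siVCPIP1 library, while FARSA was higher in every one. The FARSA over FARSB ratio was 8.99, 8.51 and 5.56 in siVCPIP1, against 2.95, 2.06 and 1.90 in siControl, so FARSA was the more abundant transcript in all 6 libraries and the mean ratio was 3.33 times as large in siVCPIP1. The GC content of the transcripts was 61.4% (FARSA) and 41.6% (FARSB), and with GC and length corrected FARSB was the higher of the pair in log2 fold change (1.43, against 0.55 for FARSA).

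**Figure D2:**
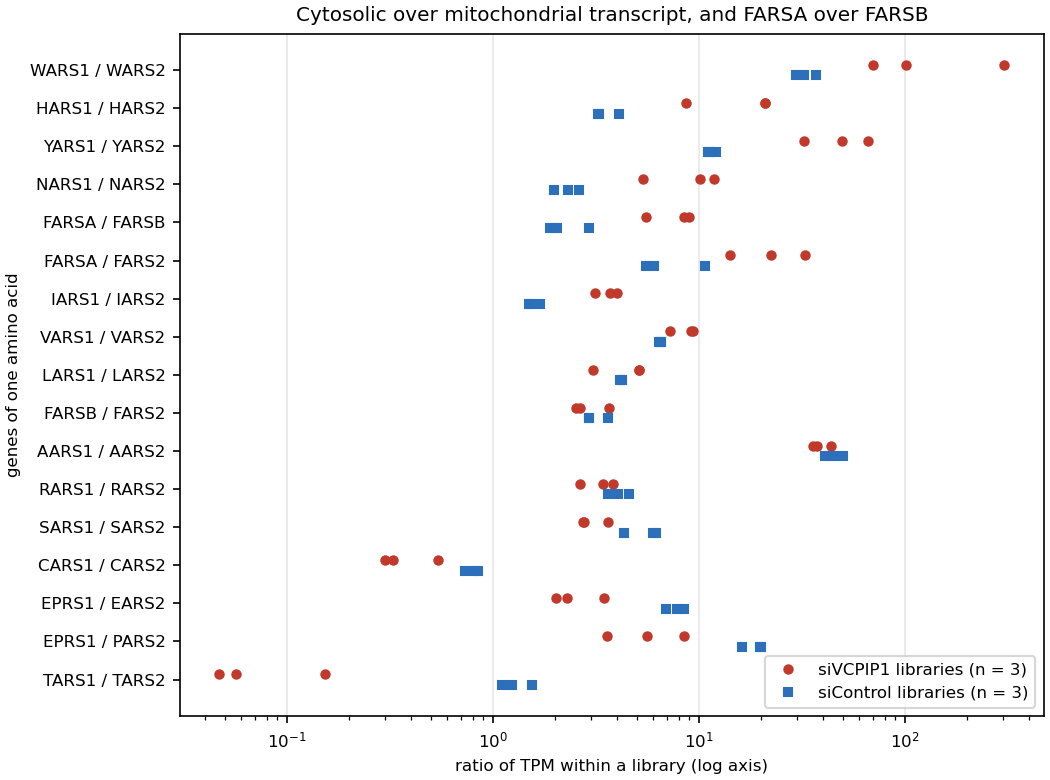
Each row is a ratio of TPM between genes for the same amino acid, cytosolic over mitochondrial except for FARSA over FARSB, on a log axis, with siVCPIP1 libraries as circles and siControl libraries as squares (n = 3 each). The TARS1 over TARS2 ratio lay between 0.047 and 0.15 in siVCPIP1 and between 1.11 and 1.55 in siControl, and the HARS1 over HARS2 ratio lay between 8.67 and 21.1 in siVCPIP1 and between 3.24 and 4.08 in siControl.

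The enzymes of the multi-tRNA-synthetase complex (among them EPRS1, IARS1, KARS1, LARS1, MARS1, QARS1 and RARS1) included 7 called lower and 0 higher of 8 with TPM as deposited, beside 66.0% and 15.0% of all genes, while LARS1, RARS1 and QARS1 were called higher with GC and length corrected. With TPM as deposited, QARS1 was the complex enzyme without a call. Their TPM summed to 331.6, 356.4 and 489.2 in siVCPIP1, against 813.4, 936.5 and 944.5 in siControl. The groups did not overlap, and siVCPIP1 replicate 3 was again the highest of its group. The other 12 cytosolic or shared members summed to 1267, 1288 and 1451 TPM in siVCPIP1, against 1479.7, 1530.3 and 1588 TPM in siControl. The median log2 fold change was -1.94 in the complex and -0.49 outside it, at a median GC content of 43.4% and 52.9%. The difference between these sets was not tested. Complex enzymes numbered 6 lower and 1 higher under median-of-ratios scaling, beside 45.1% and 40.3% of all genes. They numbered 7 and 1 under quantile normalization, beside 38.8% and 42.2%, and 4 and 3 with GC and length corrected, beside 31.8% and 37.3%.

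The scaffolds of the complex were all called lower with TPM as deposited, beside 66.0% of all genes. EEF1E1 averaged 3.35 ± 2.78 TPM in siVCPIP1 and 35.4 ± 4.31 TPM in siControl (log2 fold change -3.24, adjusted p = 7.5e-05). AIMP1 averaged 10.2 ± 4.69 TPM in siVCPIP1 and 30.6 ± 3.10 TPM in siControl (log2 fold change -1.57), with the sign turned with GC and length corrected (0.78). AIMP2 averaged 34.4 ± 16.9 TPM in siVCPIP1 and 81.6 ± 8.65 TPM in siControl (log2 fold change -1.32), and was not called under median-of-ratios scaling (adjusted p = 0.59).

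The change of a synthetase transcript followed its GC content, as it did over all genes. GC content was that of 1 protein-coding transcript per gene in GENCODE 29 (GRCh38). Across the 36 tested members, which share the same 6 libraries and so are no replicates of each other, Pearson's r between GC content and log2 fold change was 0.80 (Spearman's rho 0.82), beside r = 0.72 over 10856 genes. Of the 13 members under 45% GC, 13 were called lower, where 97.4% of all genes in that range were. Of the 9 members at 55% GC or more, 4 were called higher and 2 lower, where 37.3% and 26.7% of genes were. Members called higher had a GC content of 62.6% (VARS1), 61.4% (FARSA), 61.2% (SARS2) and 56.4% (CARS2), while TARS1, IARS1, NARS2 and IARS2 lay between 43.6% and 43.9%.

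GC content did not order the members within the low range. FARSB, at 41.6%, had a log2 fold change of -0.83, and IARS2, at 43.8%, of -4.16. Among the 12 tested members under 45% GC with a 3′ UTR of at least 100 nt, log2 fold change correlated with the GC content of the 3′ UTR at r = 0.60 (rho 0.69) and with that of the whole transcript at r = -0.44 (rho -0.29). Over all 31 tested members with such a 3′ UTR, r was 0.85 and 0.81. The correlation with 3′ UTR GC content over all genes was not computed, so these values have no background. IARS2 had a 3′ UTR GC content of 31.8% and FARSB of 40.8%, while TARS1, with 40.5%, fell by 3.74. The part of GC content in these differences was not tested beyond the corrected fit.

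**Figure D3:**
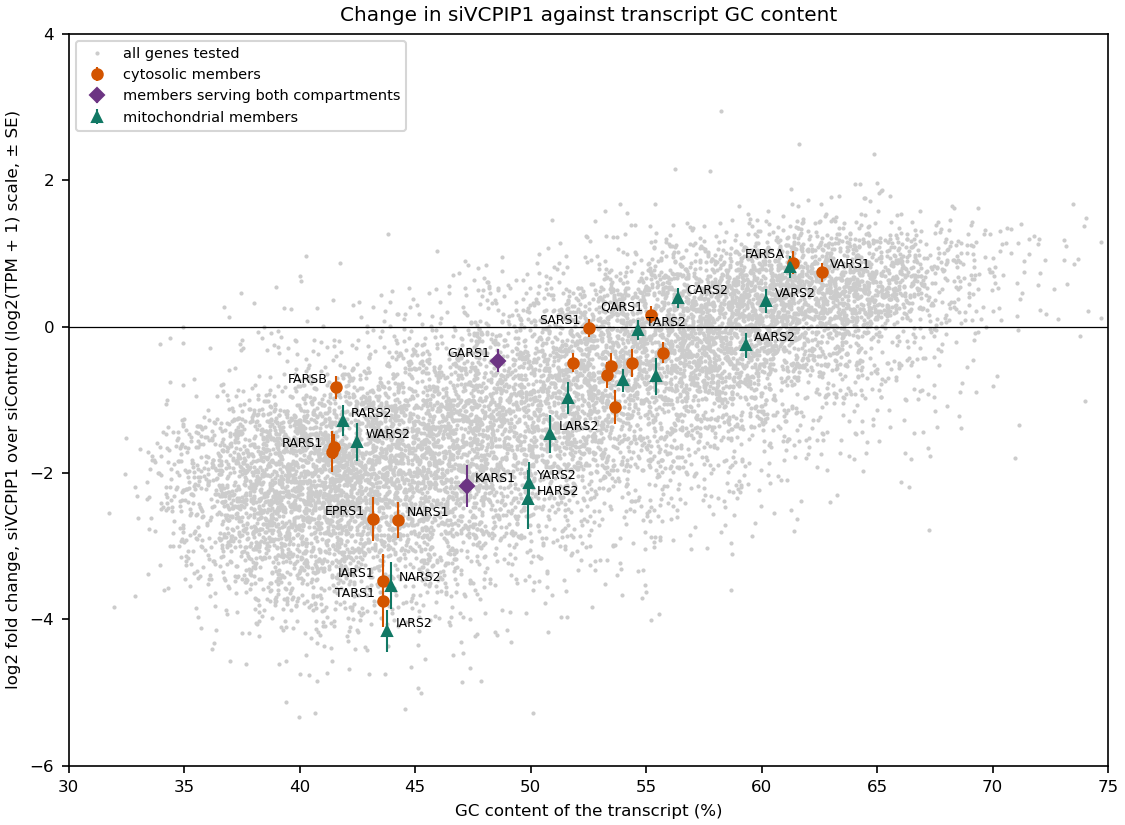
Each coloured point is 1 of 34 tested synthetase genes, with the GC content of its transcript on the x axis and its log2 fold change (siVCPIP1 over siControl, ± SE) on the y axis, and grey points are the genes tested that had a GC content. Symbols are left out where points crowd. Members follow the slope of the grey points (r = 0.80 over 36 members and 0.72 over 10856 genes), and under 45% GC they spread from -4.16 (IARS2) to -0.83 (FARSB).

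The number of members called in each direction depended on the scaling, and 14 members kept the same call under all 4. The share of all tested genes that did so was not computed, so the 14 cannot be set against a background. Median-of-ratios scaling, which moved the median of all genes to -0.14, gave 17 members higher and 15 lower, beside 40.3% and 45.1% of all genes. Quantile normalization, with a median of 0.04 over all genes, gave 11 higher and 16 lower, beside 42.2% and 38.8%. GC and length correction, with a median of 0.07, gave 18 higher and 10 lower, beside 37.3% and 31.8%. Each of these methods centres the libraries on one another, and the even balance over all genes is part of how they work. The 10 members called lower throughout included TARS1, IARS1, NARS1, EPRS1, KARS1, IARS2, NARS2, HARS2 and YARS2, and the 4 called higher throughout were FARSA, VARS1, SARS2 and CARS2. After GC and length correction, IARS2 was at -2.08, TARS1 at -1.72, IARS1 at -1.49 and NARS2 at -1.35 (adjusted p from 3.5e-05 to 0.00085). With that correction and a pseudocount of 0.1 TPM, chosen after seeing the data, NARS1, EPRS1 and KARS1 were no longer called (adjusted p = 0.23, 0.55 and 0.39).

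**Figure D4:**
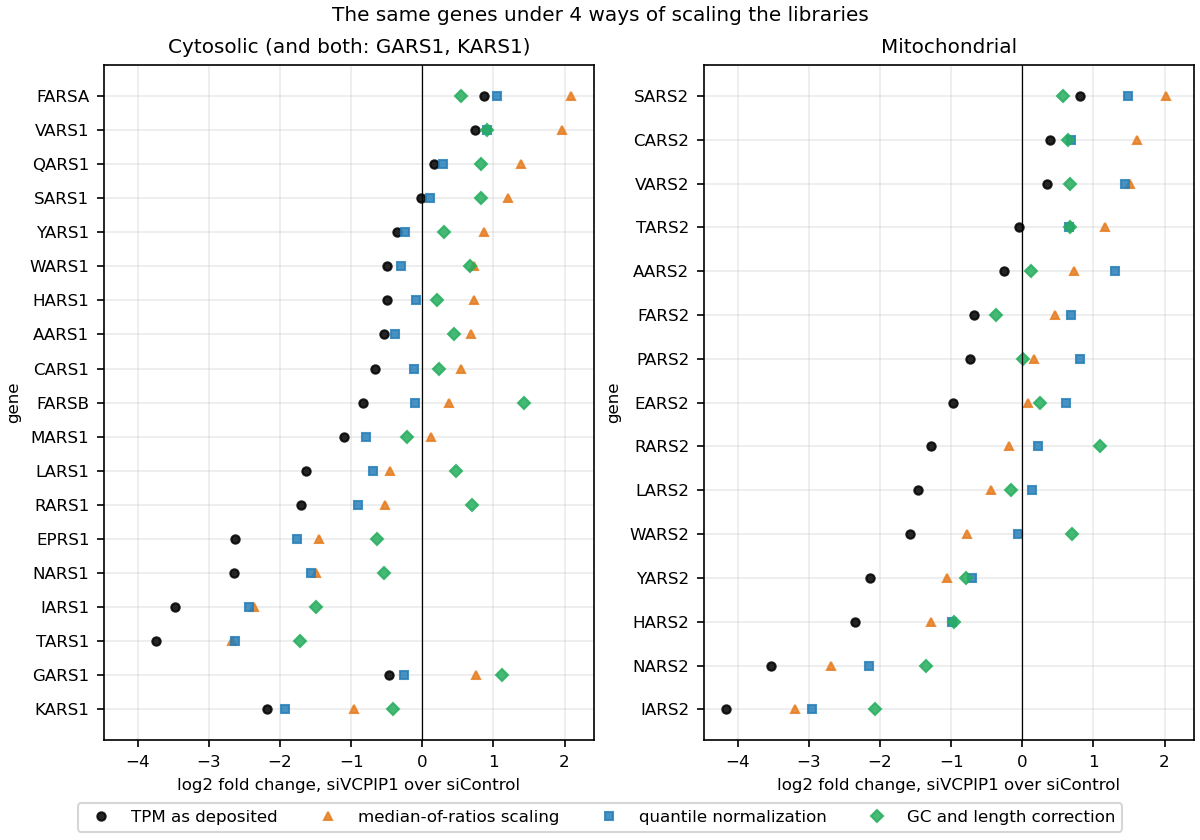
Each row is a tested synthetase gene, and the 4 symbols give its log2 fold change (siVCPIP1 over siControl) with TPM as deposited and under the 3 alternative scalings. The genes at the foot of the cytosolic list (EPRS1 to TARS1), KARS1 and the mitochondrial genes from YARS2 to IARS2 lie left of 0 for every symbol, and FARSA, VARS1, SARS2 and CARS2 lie right of 0 for every symbol.

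Other genes that handle tRNAs were read beside the synthetases. Of 13 such genes, 12 were tested, 11 were called lower and 0 higher with TPM as deposited, beside 66.0% and 15.0% of all genes. Once scaled by median of ratios, 4 were lower and 3 higher, beside 45.1% and 40.3%. XPOT, which exports tRNA from the nucleus, averaged 2.44 ± 1.60 TPM in siVCPIP1 and 28.4 ± 4.70 TPM in siControl (log2 fold change -3.18, adjusted p = 2.7e-05). TRNT1, which adds the CCA end to tRNAs, averaged 0.443 ± 0.25 TPM in siVCPIP1 and 6.51 ± 1.26 TPM in siControl (log2 fold change -2.38), with 0.06 and no call with GC and length corrected. SEPSECS, of the selenocysteinyl-tRNA pathway, and DTD2, a proofreading deacylase, had log2 fold changes of -2.01 and -1.54, and of 0.17 and 0.87 with GC and length corrected. Mitochondria charge glutamine tRNA through an amidotransferase made of QRSL1, GATB and GATC in place of a glutaminyl-tRNA synthetase. These 3 genes had log2 fold changes of -0.76, -0.59 and -0.47, all called, and all 3 were positive under median-of-ratios scaling (0.26, 0.58 and 0.69).

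Elongation factors carry charged tRNAs to the ribosome and move it along the message. Of 6 cytosolic factors, EEF1A1, EEF1B2 and EEF2 were called lower and EEF1D and EEF1G higher with TPM as deposited. Of all tested genes, 66.0% were called lower and 15.0% higher, a background that also holds for the mitochondrial factors below. EEF1A1 averaged 369.3 ± 329.9 TPM in siVCPIP1 and 2986 ± 385 TPM in siControl (log2 fold change -3.36, adjusted p = 0.00021), while EEF1D averaged 3233 ± 350.5 TPM in siVCPIP1 and 1758 ± 179 TPM in siControl (log2 fold change 0.88, adjusted p = 0.00025). EEF1B2 and EEF2 turned positive under median-of-ratios scaling (0.59 and 0.50), and EEF1G turned negative without a call under quantile normalization (adjusted p = 0.32). Of the mitochondrial factors, GFM1, GFM2 and TSFM were called lower (log2 fold changes -3.10, -2.95 and -1.47) and TUFM higher (0.30, adjusted p = 0.049), a call that was lost under quantile normalization (adjusted p = 0.12). TSFM turned positive with GC and length corrected (0.48).

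The genes of the amino acid response, which is known to act on synthetase genes, were read last. Of 12 genes, 11 were tested, and 4 were called higher and 4 lower with TPM as deposited, beside 15.0% and 66.0% of all genes. Median-of-ratios scaling gave 8 higher and 3 lower, beside 40.3% and 45.1%. CHAC1, a glutathione-degrading enzyme, averaged 33.8 ± 3.43 TPM in siVCPIP1 and 8.57 ± 2.23 TPM in siControl, and DDIT3, which encodes CHOP, averaged 244.9 ± 40.3 TPM in siVCPIP1 and 115.5 ± 9.06 TPM in siControl. Both were higher under all 4 scalings, as were SESN2 and SLC3A2 (log2 fold changes 0.96 and 0.46 with TPM as deposited). PSAT1, of serine synthesis, and SLC7A11, of cystine uptake, had log2 fold changes of -3.83 and -3.07 and were lower under all 4 scalings. EIF2AK4, which encodes GCN2, was also called lower under all 4 (-1.96 with TPM as deposited and -0.35 with GC and length corrected). SLC7A5 was called lower with TPM as deposited (-0.80) and higher under median-of-ratios scaling (0.42). ATF4 itself was not called, at 769.1 ± 262 TPM in siVCPIP1 and 724.4 ± 77.7 TPM in siControl (adjusted p = 0.87), and was higher under median-of-ratios scaling (1.27). ASNS, asparagine synthetase, was not called, at 166.6 ± 17.2 TPM in siVCPIP1 and 187.8 ± 24.7 TPM in siControl (adjusted p = 0.30), and was called higher under median-of-ratios scaling (1.06) and with GC and length corrected (1.65, adjusted p = 9.0e-05). Of the synthetase genes with TGATGCAA in the promoter, IARS1, TARS1 and NARS1 were lower under all 4 scalings.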

How the data were processed

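The authors deposited one table of TPM per gene for the 6 libraries. Per the submitters' processing notes the genome build was GRCh38.p13, and which aligner, counter and strand setting they used is not given in the sources used here. Read depth cannot be had from TPM, so no counting interval is given. A gene was tested if its TPM averaged at least 1 (10966 of 15832), as log2(TPM + 1) with limma 3.58.1 in R 4.3.3, with Benjamini-Hochberg adjustment over all tested genes and a call at an adjusted p of 0.05. The code was tested on simulated data. Alternatives were a pseudocount of 0.1, no filter, median-of-ratios scaling, quantile normalization, a spline correction for GC content and length (98.997% of tested genes had values), a replicate block and leaving out each library. The replicate numbers were not taken to pair the libraries in the main fit. Deviations of same-numbered libraries correlated at 0.53, -0.27 and 0.16, and with 3 libraries per group this cannot settle whether they are paired. Members were named by compartment and complex, and 2 that enter the counts, sums, medians and correlations are not reported here singly. The members and lists were chosen with earlier results of these data known. Promoters came from RefSeq, and GC content and exon overlaps from GENCODE 29.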

Additional observations from a re-analysis of the deposited data

How the results depend on the processing

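Median-of-ratios scaling gave 17 members higher and 15 lower, with median log2 fold changes of 0.46 (cytosolic) and -0.052 (mitochondrial). Quantile normalization gave 11 and 16, with -0.34 and 0.42. GC and length correction gave 18 and 10, with 0.37 and 0.061, and with a pseudocount of 0.1 TPM as well, chosen after seeing the data, 18 and 7, with 0.49 and 0.24. The cause was not tested. Signs turned under median-of-ratios scaling for AARS1 (0.69), CARS1 (0.55), FARSB (0.37), GARS1 (0.75), HARS1 (0.72), MARS1 (0.12), SARS1 (1.21), WARS1 (0.73), YARS1 (0.87), AARS2 (0.73), EARS2 (0.083), FARS2 (0.46), PARS2 (0.17) and TARS2 (1.16). Under quantile normalization they turned for SARS1 (0.12), AARS2 (1.30), EARS2 (0.61), FARS2 (0.69), LARS2 (0.14), PARS2 (0.82), RARS2 (0.22) and TARS2 (0.65). Under GC and length correction they turned for AARS1 (0.44), CARS1 (0.24), FARSB (1.43), GARS1 (1.12), HARS1 (0.20), LARS1 (0.48), RARS1 (0.70), SARS1 (0.82), WARS1 (0.67), YARS1 (0.31), AARS2 (0.12), EARS2 (0.25), PARS2 (0.0051), RARS2 (1.09), TARS2 (0.68), WARS2 (0.71) and VCPIP1 (0.26). VCPIP1 was at -0.56 under that correction with a pseudocount of 0.1 TPM. With the smaller pseudocount as well they turned for AARS1 (0.62), CARS1 (0.38), FARSB (2.07), GARS1 (1.41), HARS1 (0.31), LARS1 (1.15), RARS1 (1.20), SARS1 (0.94), WARS1 (0.88), YARS1 (0.43), AARS2 (0.15), EARS2 (0.36), RARS2 (1.44), TARS2 (0.80) and WARS2 (0.54).

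Leaving out each library in turn gave 3 to 4 members higher and 22 to 28 lower, with a cytosolic median of -0.89 to -0.66 and a mitochondrial one of -1.28 to -0.99. SARS1 ranged from -0.092 to 0.044. Calls of AARS1, CARS2, FARS2, GARS1, HARS1 and YARS1 were lost without at least 1 library, and AARS2 was called lower without siVCPIP1 replicate 3 (adjusted p = 0.048). Without the filter the YARS1 call was lost (adjusted p = 0.058) and MARS2 was called lower (-1.20, adjusted p = 0.00018). The replicate block gave 4 higher and 27 lower and changed no member's call. Deviations of same-numbered libraries correlated at 0.53 for replicate 1, -0.27 for replicate 2 and 0.16 for replicate 3. TPM keeps no depth, so the precision of low values such as those of MARS2 is unknown.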
